A study of Mus musculus with 6 samples.

Results

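The genes described here are 39 genes of the type I interferon response, chosen by symbol as the receptor, the transcription factors, the nucleic acid sensors and well-known targets of the pathway. Of the 39 genes, 37 had a probe set that the platform annotation gave to that gene alone, out of 19938 genes with such a probe set in all. Of these, 35 passed the filter on dim signal described below, of 16487 genes that did. Their levels were measured in gastrocnemius, a calf muscle, of male mice at 12 weeks of age, with 3 arrays from Sparc knockouts (KO), called homogenous in the labels, and 3 from wild types (WT). The strain label of both genotypes is B6;129S-Sparctm1Hwe/J. Whether the wild types came from the same litters is not given. Sparc encodes a secreted glycoprotein that binds collagen, and the study set out to compare the metabolic genes of muscle mouse by mouse. Each array was therefore taken as 1 mouse. The labels give no culture, dissection or array day, so the spread between arrays may be partly technical.

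Type I interferons are cytokines that cells release when they sense foreign nucleic acid. They bind a receptor of the chains IFNAR1 and IFNAR2, whose kinases JAK1 and TYK2 pass the signal to STAT2. STAT2 and IRF9 are part of a transcription factor that binds interferon-stimulated response elements in the promoters of target genes, many of which block a step of viral replication. In muscle the same genes are known for their strong expression in the fibres of patients with dermatomyositis, an inflammatory muscle disease.

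The response element has a core of GAAA, any 2 bases and again GAAA. These letters, or TTTC, 2 bases and TTTC where the element lies on the other strand, were searched in RefSeq promoter windows of assembly GRCm38.p6, which run from 250 bases before to 50 bases after a start site. Windows were at hand for 29 of the 39 members, and 12 of these 29 held the letters: Bst2, Ddx58, Eif2ak2, Ifih1, Ifit1, Ifit3, Ifitm3, Isg15, Oas1a, Oas3, Rsad2 and Stat2. Over all genes with a window, 3.99% held them. The letters stood in 6 of 14 members whose mean was higher in KO and in 5 of 13 whose mean was lower in KO. TTCNNNGAA, where N is any base, the core of the gamma-activated site, which is the same on both strands, stood in 11 of the 29 members and in 9.55% of all genes. A match is a description of the letters only. The windows below belong to the 3 members with the letters that had the smallest p on either side of the comparison, read 5′ to 3′ along the gene, with the matched letters in capitals. They are Rsad2 (chr12:26456403-26456702, minus strand), Bst2 (chr8:71537423-71537722, minus strand), Ifit3 (chr19:34583279-34583578, plus strand), Eif2ak2 (chr17:78882523-78882822, minus strand), Ddx58 (chr4:40239776-40240075, minus strand) and Ifih1 (chr2:62646206-62646505, minus strand).
Rsad2: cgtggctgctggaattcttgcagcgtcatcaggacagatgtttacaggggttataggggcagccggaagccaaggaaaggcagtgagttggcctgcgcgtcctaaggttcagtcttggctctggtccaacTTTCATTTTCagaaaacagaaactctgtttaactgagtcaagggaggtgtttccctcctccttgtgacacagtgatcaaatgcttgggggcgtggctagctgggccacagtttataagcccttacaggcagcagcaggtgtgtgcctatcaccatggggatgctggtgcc
Bst2: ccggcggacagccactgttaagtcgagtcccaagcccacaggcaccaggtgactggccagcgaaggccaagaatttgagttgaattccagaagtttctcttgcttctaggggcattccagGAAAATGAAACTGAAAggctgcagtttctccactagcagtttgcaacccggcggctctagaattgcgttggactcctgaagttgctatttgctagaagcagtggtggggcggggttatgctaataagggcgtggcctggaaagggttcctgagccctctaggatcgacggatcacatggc
Ifit3: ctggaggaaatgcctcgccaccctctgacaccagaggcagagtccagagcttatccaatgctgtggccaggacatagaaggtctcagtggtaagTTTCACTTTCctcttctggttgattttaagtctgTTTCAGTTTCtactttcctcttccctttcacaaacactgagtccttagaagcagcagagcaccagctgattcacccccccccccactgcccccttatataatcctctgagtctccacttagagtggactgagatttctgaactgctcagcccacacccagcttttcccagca
Eif2ak2: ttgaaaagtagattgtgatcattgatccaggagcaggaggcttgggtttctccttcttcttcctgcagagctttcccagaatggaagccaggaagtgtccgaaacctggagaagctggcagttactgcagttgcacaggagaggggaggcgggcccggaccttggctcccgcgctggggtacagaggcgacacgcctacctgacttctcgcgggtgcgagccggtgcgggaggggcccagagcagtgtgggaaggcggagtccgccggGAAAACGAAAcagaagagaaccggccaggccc
Ddx58: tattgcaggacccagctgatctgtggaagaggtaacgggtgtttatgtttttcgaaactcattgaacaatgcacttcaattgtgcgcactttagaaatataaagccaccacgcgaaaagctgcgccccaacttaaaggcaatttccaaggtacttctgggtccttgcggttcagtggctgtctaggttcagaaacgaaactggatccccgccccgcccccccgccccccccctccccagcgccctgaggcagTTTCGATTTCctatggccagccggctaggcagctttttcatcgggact
Ifih1: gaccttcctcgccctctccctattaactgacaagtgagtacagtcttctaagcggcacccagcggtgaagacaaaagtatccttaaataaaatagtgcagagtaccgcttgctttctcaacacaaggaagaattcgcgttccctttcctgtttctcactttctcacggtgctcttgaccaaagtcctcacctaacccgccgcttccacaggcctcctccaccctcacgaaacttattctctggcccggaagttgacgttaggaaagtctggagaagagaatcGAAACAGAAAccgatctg

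In the windows of Rsad2, Bst2 and Ifit3, whose means were lower in KO, the letters lie upstream of the start site: at -120 to -111 in Rsad2, from -130 to -115 as a pair of overlapping matches in Bst2, and at -156 to -147 and -122 to -113 in Ifit3. In those of Eif2ak2, Ddx58 and Ifih1, whose means were higher in KO, they lie just after it, at 19 to 28, 3 to 12 and 33 to 42. The KO and WT arrays overlapped in Ifit3, Ddx58 and Ifih1 (limma adjusted p = 0.614, 0.358 and 0.491), so their directions are not settled. In the further windows with the letters they lie after the start in Ifitm3, whose mean was higher in KO. They lie before it in Stat2 and Oas1a, whose means were higher in KO, and in Ifit1 and Oas3, whose means were lower. In Isg15, which was not tested, they also lie before it. So the position did not follow the direction of the change in all members. Base 1 is the first transcribed base and base -1 the one before it.

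The labels were checked first on the targeted gene. Sparc was at 6.74, 6.46 and 5.83 in KO arrays 1, 2 and 3, against 11.80, 11.73 and 11.87 in WT arrays 1, 2 and 3 (log2 intensity, as are all levels below). Its log2 change, KO minus WT, was -5.46 ± 0.20 (SE; limma adjusted p = 2.08e-05). All 12 muscle fibre markers, among them Acta1, Ckm and Myh4, were tested, with log2 levels of 10.85 to 13.48 over the arrays. Knockout arrays varied more than wild type arrays, with a median SD per gene of 0.16 in KO and 0.09 in WT over all genes tested. Genes were tested with limma, a linear model with moderated variances, and p-values were adjusted over all 16487 genes with the Benjamini-Hochberg method at a threshold of 0.05. The filter removed genes whose mean over the 6 arrays was under 3.90, the level below which 25% of probe sets lay. Levels of different probe sets cannot be set against each other.

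None of the 35 tested members passed the threshold by limma, where 0.995% of all genes passed, 0.321% as higher and 0.673% as lower in KO. At an unadjusted p of 0.05, 5 members were higher and 2 lower in KO, or 14.3% and 5.71% of them, beside 8.16% and 10.3% of all genes (18.4% in either direction). This balance depended on the scaling. With arrays centred on their median, 2 members were higher and 3 lower, beside 5.34% and 12.5% of all genes, and after a second quantile normalization 8 were higher and 3 lower, beside 8.67% and 10.3%. With the values as deposited the 5 were Xaf1, Ifnar1, Eif2ak2, Samd9l and Parp9, and the 2 were Rsad2 and Bst2. These 2 were also the members with a log2 change over 0.5 in size, which 4.85% of all genes had. The KO and WT arrays did not overlap in 8 members, beside 25% of all genes, with KO above in 5 (14.3%, against 11.1% of all genes) and below in 3 (8.57%, against 13.8%). The median log2 change of the tested members was 0.07, and it was 5.3e-05 over all genes. Of these members, 20 had a positive and 15 a negative change, in a range of -0.95 to 0.47. The RNA is from whole muscle, so a lower value may mean fewer cells of a type or less RNA per cell, which these data cannot tell apart.

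**Figure D1:**
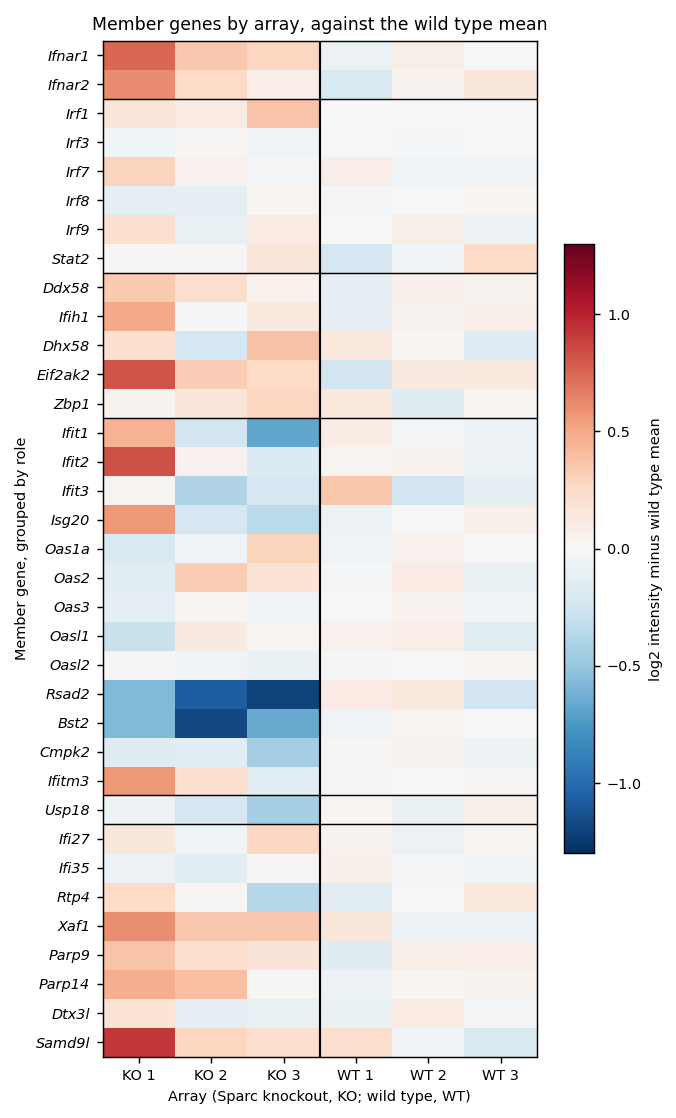
Each cell shows the log2 intensity of 1 member (rows, grouped by role) on 1 array (columns, KO left of WT) minus the WT mean of that gene. Rsad2 and Bst2 are below the WT mean on all 3 KO arrays, and KO array 1 is above it in many rows, with Samd9l, Eif2ak2 and Ifit2 the deepest red.

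**Figure D2:**
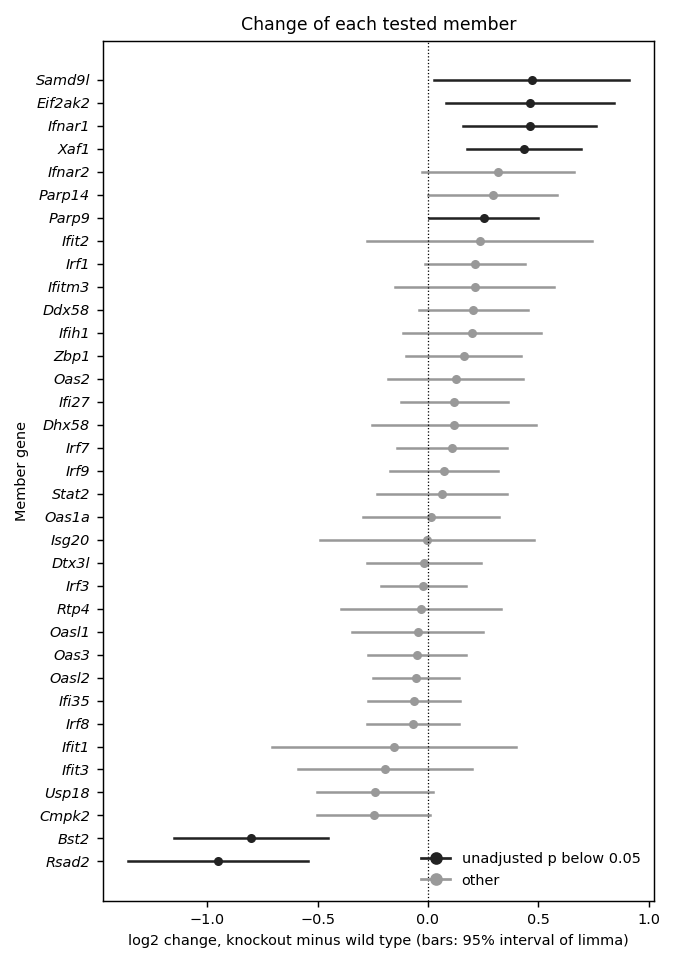
Points give the log2 change, KO minus WT, of the 35 tested members and bars its 95% interval by limma, in black where the unadjusted p was below 0.05. The intervals of Rsad2 and Bst2 lie below 0, those of Samd9l, Eif2ak2, Ifnar1, Xaf1 and Parp9 above it, and the others cross 0.

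Both receptor chains had higher means in KO muscle. Ifnar1, the chain that holds TYK2, was at 8.09, 7.70 and 7.63 in KO arrays 1, 2 and 3, against 7.27, 7.42 and 7.35 in WT arrays 1, 2 and 3. Every KO array lay above every WT array, and array 1 was the highest. The change was 0.46 ± 0.13 (SE), 1.38-fold, at an adjusted p of 0.129 by limma. Ifnar2, the chain that holds JAK1 and binds interferon most tightly, was at 8.01, 7.65 and 7.48 in KO, against 7.20, 7.44 and 7.54 in WT. Here KO array 3 lay below WT array 3, so the groups overlapped, and the change was 0.32 ± 0.15 (SE; limma adjusted p = 0.309). Without KO array 1 the changes were 0.32 for Ifnar1 and 0.17 for Ifnar2. The genes of the chains are close neighbours on chromosome 16, with 3 gene entries of the RefSeq table between them.

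The transcription factors of the pathway showed small differences. Stat2, which carries the signal from the receptor, was at 6.52, 6.51 and 6.66 in KO arrays 1, 2 and 3, against 6.29, 6.46 and 6.75 in WT arrays 1, 2 and 3. Irf9, its DNA-binding partner, was at 6.69, 6.39 and 6.59 in KO, against 6.48, 6.56 and 6.41 in WT. In both the arrays of the genotypes were interleaved, with changes of 0.06 ± 0.13 for Stat2 and 0.07 ± 0.11 for Irf9 (SE), and 95% intervals of -0.23 to 0.36 and -0.17 to 0.32. Irf3 and Irf7, which switch on the interferon genes themselves, had changes of -0.02 ± 0.08 and 0.11 ± 0.11 (SE), and that of Irf7 was 0.02 without KO array 1. Irf8, a factor of myeloid cells, was at 5.65, 5.65 and 5.79 in KO, against 5.75, 5.76 and 5.79 in WT, a change of -0.07 ± 0.09 (SE).

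Irf1, a factor that interferon gamma induces above all, was at 6.93, 6.88 and 7.14 in KO arrays 1, 2 and 3, against 6.76, 6.78 and 6.77 in WT arrays 1, 2 and 3. The groups did not overlap, and the WT arrays differed by little, with an SD of 0.0089. The change of 0.21 ± 0.10 (SE) had an adjusted p of 0.3 by limma. Irf1 was the only tested member with a further probe set of its own, and that one ran the other way, with a mean of 5.34 in KO and 5.55 in WT. With both averaged the change was 0.0017. Irf1 is also the member nearest to the deleted gene: on chromosome 11 it is separated from Sparc by 51 gene entries of the RefSeq table, Xaf1 by 563, Dhx58 by 1489 and Ifi35 by 1532.

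All 5 sensors of foreign nucleic acid had a positive change, and none passed. Eif2ak2, the kinase PKR that stops translation on double-stranded RNA, was at 7.30, 6.80 and 6.74 in KO arrays 1, 2 and 3, against 6.24, 6.60 and 6.61 in WT arrays 1, 2 and 3. The lowest KO array lay just above the highest WT array, and KO array 1 stood apart from the other two. The change was 0.46 ± 0.17 (SE; limma adjusted p = 0.195), and 0.29 without KO array 1. The helicases Ddx58 (RIG-I), Ifih1 (MDA5) and Dhx58 (LGP2), which detect viral RNA in the cytosol, had changes of 0.21 ± 0.11, 0.20 ± 0.14 and 0.12 ± 0.16 (SE). Zbp1, a sensor of Z-form nucleic acid, had one of 0.16 ± 0.11 (SE). The groups overlapped in the last 4, and Dhx58 turned to -0.01 without KO array 3. Without KO array 1 the change of Ifih1 was 0.06 and that of Ddx58 0.14, and without WT array 2 that of Zbp1 was 0.08.

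Among the antiviral effectors the largest differences of the whole set were negative. Rsad2 encodes viperin, an enzyme that makes a nucleotide which stops viral RNA synthesis. It was at 5.44, 4.94 and 4.81 in KO arrays 1, 2 and 3, against 6.12, 6.16 and 5.77 in WT arrays 1, 2 and 3. Every KO array lay below every WT array. The change was -0.95 ± 0.18 (SE), 1.93-fold lower in KO, and its adjusted p of 0.0528 by limma just missed the threshold. Bst2 encodes tetherin, a membrane protein that holds budding viruses on the cell. It was at 7.15, 6.55 and 7.07 in KO, against 7.68, 7.77 and 7.74 in WT. The WT arrays lay close together, and KO array 2 was the lowest of all. The change was -0.80 ± 0.15 (SE), 1.74-fold lower in KO, at an adjusted p of 0.055 by limma. These p-values depended on single arrays. Without KO array 1, Rsad2 was at -1.14 and Bst2 at -0.92, with adjusted p-values of 0.0138 and 0.036, and without KO array 2 Bst2 was at -0.62 and passed at 0.0162 while Rsad2 was at -0.89 and 0.0522. Over all 15 alternatives the adjusted p of Rsad2 ran from 0.0138 to 0.226 and that of Bst2 from 0.0106 to 0.228, and each passed in 4.

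Cmpk2, a mitochondrial kinase that supplies the nucleotide on which viperin acts, adjoins Rsad2 on chromosome 12 with 0 gene entries between them. It was at 5.25, 5.26 and 4.96 in KO arrays 1, 2 and 3, against 5.42, 5.45 and 5.34 in WT arrays 1, 2 and 3. KO again lay below WT on every array, but the change was smaller, at -0.25 ± 0.11 (SE; limma adjusted p = 0.291), and -0.15 without KO array 3. The RefSeq window of Rsad2 shown above held the response element letters, and that of Cmpk2 held neither set of letters.

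**Figure D3:**
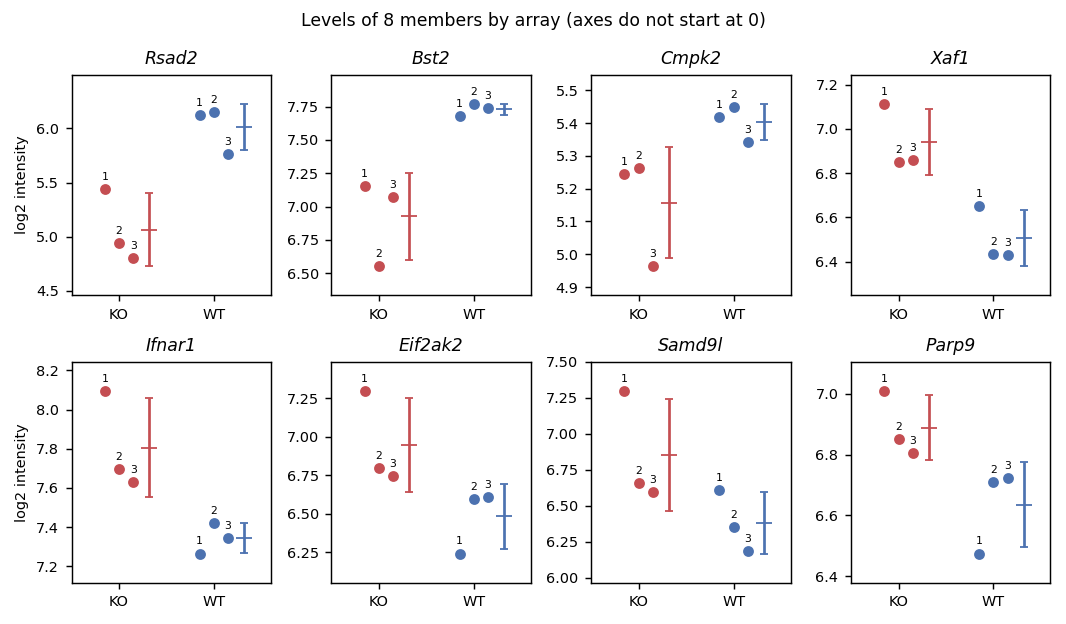
Points show the log2 intensity of 8 members on each array, numbered 1 to 3 and with KO left of WT, and bars the mean and SD of 3 arrays. In Rsad2, Bst2 and Cmpk2 all KO arrays lie below the WT arrays, in Xaf1, Ifnar1, Eif2ak2 and Parp9 all lie above them, and in Samd9l the lowest KO array is just under the highest WT array.

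The Ifit genes, whose products bind viral RNA, differed more between the KO arrays than between genotypes. Ifit1 was at 6.29, 5.60 and 5.16 in KO arrays 1, 2 and 3, against 5.94, 5.81 and 5.76 in WT arrays 1, 2 and 3. Ifit2 was at 6.93, 6.16 and 5.93 in KO, against 6.14, 6.14 and 6.02 in WT. In both, the KO arrays reached above and below all WT arrays, with SDs of 0.57 and 0.52 in KO and 0.09 and 0.07 in WT. Their changes of -0.15 ± 0.24 and 0.23 ± 0.22 (SE) turned sign without a single array: Ifit1 was at 0.11 without KO array 3 and Ifit2 at -0.06 without KO array 1. Ifit3 was at 6.21, 5.78 and 5.95 in KO, against 6.54, 5.93 and 6.05 in WT, a change of -0.19 ± 0.17 (SE) that was -0.01 without WT array 1. Isg20, an exonuclease that degrades viral RNA, followed the order of Ifit2, at 7.82, 7.05 and 6.91 in KO, against 7.19, 7.27 and 7.33 in WT, so that its change was -0.003 ± 0.212 (SE). Ifit2 and Ifit3 adjoin on chromosome 19, and 4 gene entries separate Ifit3 from Ifit1.

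The oligoadenylate synthetases, which activate RNase L to degrade RNA, showed little difference. Oas1a, Oas2 and Oas3 had changes of 0.01 ± 0.13, 0.13 ± 0.13 and -0.05 ± 0.10 (SE), and their relatives Oasl1 and Oasl2 had -0.05 ± 0.13 and -0.05 ± 0.09 (SE). The 95% intervals of all 5 lay within -0.34 to 0.43, so a doubling of the array value, a log2 change of 1 or -1, lies outside them. Oas1a, Oas2 and Oas3 had low mean levels of 4.85, 5.38 and 4.83. Changes in RNA can be understated at such levels, so the intervals do not bound the change of the RNA itself. Ifitm3, which blocks viral entry from endosomes, was at 10.72, 10.37 and 10.01 in KO arrays 1, 2 and 3, against 10.15, 10.16 and 10.17 in WT arrays 1, 2 and 3. Its KO arrays again spread on both sides of tightly placed WT arrays, with an SD of 0.35 in KO and 0.01 in WT. The change of 0.21 ± 0.16 (SE) was 0.03 without KO array 1. Mx1 and Mx2, GTPases that trap viral nucleocapsids, had means of 3.48 and 3.67 in KO and 3.50 and 3.56 in WT, under the dim filter, and were not tested.

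Of the ISG15 system, a ubiquitin-like tag and its enzymes, Usp18 was measured. Usp18 removes the tag and dampens signalling at the receptor. It was at 6.08, 5.93 and 5.72 in KO arrays 1, 2 and 3, against 6.17, 6.05 and 6.22 in WT arrays 1, 2 and 3. KO array 1 lay just above WT array 2, so the groups overlapped, and the change was -0.24 ± 0.12 (SE; limma adjusted p = 0.319), and -0.14 without KO array 3. Isg15 shares its probe set with the gene Gm9706 and was not tested. That probe set was at 4.56, 4.47 and 4.64 in KO, against 4.69, 4.75 and 4.74 in WT. Ifi44 had no probe set under its symbol and was not analysed here.

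Of the 8 other interferon-induced genes tested, 5 had a positive change. Xaf1, a promoter of cell death that antagonises XIAP, was at 7.11, 6.85 and 6.86 in KO arrays 1, 2 and 3, against 6.65, 6.44 and 6.43 in WT arrays 1, 2 and 3. The groups were apart, and the change of 0.44 ± 0.11 (SE), 1.35-fold, had the smallest p of the members with a positive change (limma adjusted p = 0.107). It was 0.35 to 0.51 over the alternatives and passed in none. Samd9l, an interferon-induced brake on cell growth and translation, was at 7.30, 6.66 and 6.59 in KO, against 6.61, 6.35 and 6.18 in WT. KO array 1 was far above the rest, and KO array 3 lay just under WT array 1. The change was 0.47 ± 0.19 (SE; limma adjusted p = 0.245), and 0.25 without KO array 1.

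Parp9 and Dtx3l, whose products form a complex that joins ADP-ribosylation to ubiquitin transfer, adjoin each other on chromosome 16, with Parp14, a further ADP-ribosyltransferase, 2 gene entries away. Parp9 was at 7.01, 6.85 and 6.80 in KO arrays 1, 2 and 3, against 6.47, 6.71 and 6.72 in WT arrays 1, 2 and 3. Parp14 was at 7.39, 7.31 and 6.94 in KO, against 6.84, 6.95 and 6.97 in WT. The first did not overlap and the second did, with changes of 0.25 ± 0.11 and 0.29 ± 0.13 (SE; limma adjusted p = 0.263 and 0.273). Dtx3l had a change of -0.02 ± 0.11 (SE). Ifi27, Ifi35 and Rtp4, the last a chaperone of membrane receptors, had changes of 0.12 ± 0.11, -0.06 ± 0.09 and -0.03 ± 0.16 (SE).

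The members varied more among the KO than among the WT arrays. The SD was larger in KO in 31 of 35 members, and in 75.4% of all genes. The median SD of the members was 0.21 in KO and 0.09 in WT. KO array 1 was the highest of the 6 arrays in 17 of 35 members, or 48.6%, against 22.2% of all genes. Among the KO arrays alone it was the highest in 22 members, or 62.9%, against 32.5% of all genes. The mean deviation of the tested members from the WT mean was 0.20 in KO array 1, -0.02 in array 2 and -0.04 in array 3. In the antiviral effectors it was 0.03, -0.20 and -0.27, and in the receptor chains 0.68, 0.31 and 0.18.

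**Figure D4:**
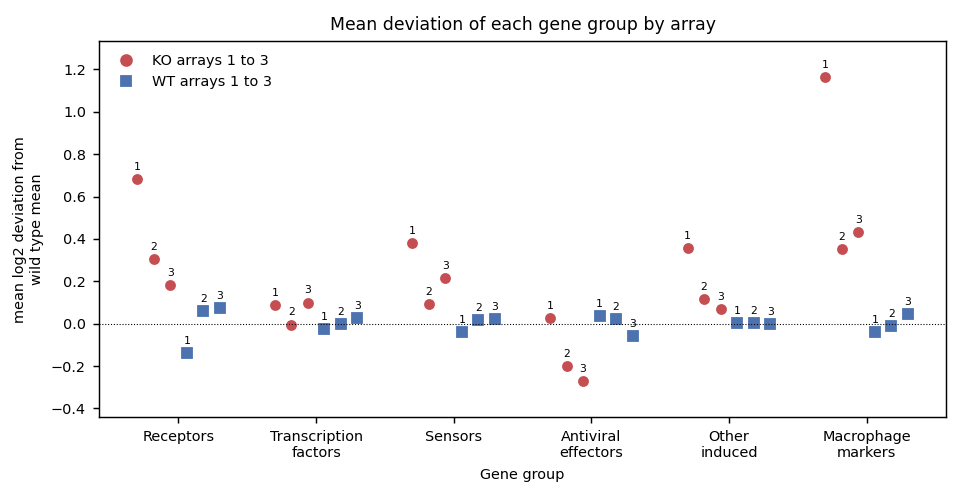
Points give the mean log2 deviation from the WT mean of the tested members of a role, and of 12 macrophage markers, on each array, numbered 1 to 3 with KO (circles) left of WT (squares). KO array 1 is the highest array in the receptors, sensors, other induced genes and macrophage markers, where it reaches 1.16.

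Markers of macrophages were, by their sum, also highest in KO array 1, but KO arrays 2 and 3 lay above all WT arrays too. All 12 had a positive change, with a median of 0.63. Of them 0 passed by limma with adjustment and 8 were higher at an unadjusted p of 0.05, where 8.16% of all genes were. Their summed intensity was 6178, 3353 and 3726 in KO arrays 1, 2 and 3, against 2409, 2545 and 2684 in WT arrays 1, 2 and 3. Such sums give most weight to the brightest probe sets, here that of Lyz2. None of the 12 markers was listed at 0 or under the dim filter. Mpeg1 and Cd68 had the smallest p, with changes of 1.67 ± 0.33 and 0.99 ± 0.23 (SE; limma adjusted p = 0.0583 and 0.0858). Without KO array 1, 10 of 12 had a positive change, with a median of 0.35, and 8 were higher at an unadjusted p of 0.05 by limma. In the same samples 8 of 8 fibroblast markers had a positive change, with a median of 0.63 and summed intensities of 12229 to 16795 in KO and 10863 to 11968 in WT. Without KO array 1, 6 of 8 had one, with a median of 0.44. Of the 8, 5 were higher at an unadjusted p of 0.05 by limma, both with all arrays and without KO array 1. Adipocyte markers had a negative change in 6 of 6, with a median of -0.52, and 0 passed by limma. Of the 6, 2 were lower at an unadjusted p of 0.05, beside 10.3% of all genes. These were Retn at -1.44 ± 0.37 and Lep at -1.15 ± 0.37 (SE). The summed intensity of the adipocyte markers was 2740, 2450 and 2231 in KO arrays 1, 2 and 3. It was 2197, 3717 and 3928 in WT arrays 1, 2 and 3, so that WT array 1 lay below the KO arrays. The part of these cell types in the values of the members was not tested. KO array 1 was the highest KO array in 22 of 35 members, so leaving it out lowers their KO means by construction. Without it 6 members had a lower and 4 a higher mean at an unadjusted p of 0.05 by limma. Among all genes 11.5% were lower and 10.7% higher with that array left out. With all arrays the counts of members were 2 lower and 5 higher. Without KO array 2 they were 3 and 5, and without KO array 3 they were 2 and 9. The shares of all genes were not counted for these last settings. The 6 lower without KO array 1 were Rsad2, Bst2, Ifit1, Usp18, Isg20 and Cmpk2, and the 4 higher were Xaf1, Ifnar1, Oas2 and Irf1. Of these, Ifit1 turned sign without KO array 3, and Isg20 turned under 5 of the alternatives.

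Of 10 dendritic cell, 14 lymphocyte and natural killer cell and 8 neutrophil markers with a probe set, 3, 6 and 4 were under the dim filter, among them Clec9a, Cd79a and Ly6g, where 17.3% of all genes were. Of the dendritic cell markers tested 3 had a positive and 4 a negative change. Cd209a, a lectin of myeloid cells, passed as lower, at -1.61 ± 0.12 (SE; limma adjusted p = 0.00124), while Clec10a, a further lectin, had a change of 0.46 ± 0.18 (SE; limma adjusted p = 0.217). The summed intensity of the dendritic cell markers was 339 to 359 in KO and 361 to 410 in WT, and without Cd209a it was 307 to 327 in KO and 269 to 309 in WT. Of the neutrophil markers tested 3 had a positive and 1 a negative change. Csf3r had the smallest p, at 0.57 ± 0.12 (SE; limma adjusted p = 0.0712), followed by Mmp9 at -0.33 ± 0.19 (SE). The lymphocyte and natural killer cell markers had 4 positive and 4 negative changes, with a median of 0.01. Their summed intensity was 292 to 306 in KO and 270 to 281 in WT, and without Cd4, a coreceptor of helper T cells with a change of 0.83 ± 0.21 (SE; limma adjusted p = 0.0971), it was 238 to 265 in KO and 245 to 252 in WT. Endothelial markers had 4 positive and 5 negative changes, and their summed intensity was 2812 in KO array 3 against 4469 and 4497 in KO arrays 1 and 2, with 3533 to 3874 in WT.

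The steps before and after the receptor were read from lists of further genes. Of the interferons themselves Ifna2 and Ifne were tested, with changes of -0.01 ± 0.24 and 0.13 ± 0.17 (SE), while Ifna4, Ifnk and Ifnb1 were under the dim filter. Ifnb1 was at 3.55, 3.69 and 3.65 in KO arrays 1, 2 and 3, against 3.48, 3.72 and 3.66 in WT arrays 1, 2 and 3. Of 14 tested genes of interferon induction 12 had a positive change (median 0.13), and 0 passed by limma. At an unadjusted p of 0.05, 4 were higher and 0 lower, beside 8.16% and 10.3% of all genes. Sting1, the adaptor for cytosolic DNA, was at 7.48, 7.30 and 6.92 in KO, against 6.43, 6.53 and 6.78 in WT, a change of 0.66 ± 0.16 (SE; limma adjusted p = 0.0887). Ticam1, the adaptor of Toll-like receptor 3, had one of 0.35 ± 0.11 (SE; limma adjusted p = 0.146). In both, all KO arrays lay above all WT arrays. Of 9 tested genes of receptor signalling 6 had a positive change (median 0.11) and 0 passed by limma. At an unadjusted p of 0.05, 1 was higher, where 8.16% of all genes were. That one was Ptpn6, the phosphatase SHP-1, at 0.33 ± 0.10 (SE), followed by the kinase Tyk2 at 0.22 ± 0.10 (SE).

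Of 18 listed interferon-inducible GTPases, which attack the membranes around intracellular microbes, 9 had a probe set of their own and were tested. All 9 had a negative change, from -0.25 to -0.06 with a median of -0.15, where 50% of all genes had one. None passed by limma, and 0 had an unadjusted p under 0.05, where 18.4% of all genes had one. Irgm1 and Gbp5 had the smallest p, at -0.18 ± 0.10 and -0.25 ± 0.14 (SE; limma adjusted p = 0.394 and 0.4). The direction was shared by 9 of 9 after either further normalization, and by 8 of 9 without KO array 2, KO array 3 or WT array 2. In the type II and III interferon axis 5 of 11 changes were positive (median -0.05) and 0 passed by limma. At an unadjusted p of 0.05, 1 was lower, where 10.3% of all genes were. That one was Cxcl9, a chemokine that interferon gamma induces, at 6.07, 6.05 and 5.72 in KO arrays 1, 2 and 3, against 6.34, 6.38 and 6.72 in WT arrays 1, 2 and 3. Its groups did not overlap, and the change was -0.53 ± 0.14 (SE; limma adjusted p = 0.109). Cd274, the checkpoint ligand PD-L1, had one of -0.24 ± 0.10 (SE; limma adjusted p = 0.279).

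Of 19 tested family relatives of the members, 11 had a positive change (median 0.04) and 0 passed by limma. At an unadjusted p of 0.05, 1 was higher (Ifitm2) and 1 lower (Ifit3b), beside 8.16% and 10.3% of all genes. Ifit3b, a near copy of Ifit3 whose signal may be shared with it, was at 4.00, 3.79 and 3.59 in KO arrays 1, 2 and 3, against 4.18, 4.20 and 4.20 in WT arrays 1, 2 and 3. Its KO mean of 3.79 lay under the dim filter of 3.90. Ifit3b was thus tested only because of its WT mean of 4.20, and its difference lies near the floor. Ifitm2 was at 10.39, 10.10 and 9.75 in KO, against 9.74, 9.77 and 9.69 in WT, the same order of KO arrays as its relative Ifitm3. Of 49 other interferon-stimulated genes 24 had a positive change (median -0.002). At an unadjusted p of 0.05 by limma, 3 were higher and 3 lower, beside 8.16% and 10.3% of all genes. After adjustment 1 passed, as higher, where 0.321% of all genes did. This was Ifi30, a lysosomal thiol reductase of antigen-presenting cells, at 7.85, 7.89 and 8.03 in KO, against 7.14, 7.05 and 7.20 in WT. All KO arrays lay above all WT arrays by a wide margin, and the change was 0.79 ± 0.10 (SE; limma adjusted p = 0.00974). With any 1 WT array left out the adjusted p was 0.0689 to 0.0909, which misses the threshold, at a change of 0.75 to 0.83.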

How the data were processed

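Total RNA of gastrocnemius was labelled with biotin and hybridised to Affymetrix whole-transcript arrays. The deposited values are intensities per probe set on a linear scale, which, per the submitters' processing notes, the authors made with RMA and the Affymetrix Expression Console (version 1.3.0.187). Because RMA models the arrays jointly and compresses the low end, changes of dim genes can be understated. No detection calls or genome build of the probe sets are given in the sources used here. All 6 columns were used, with 0 unmapped. The number of arrays limits the precision.

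For this work log2 of the intensity was taken with no offset. Of 35556 probe sets 21789 had 1 gene symbol in the platform annotation, which can be old, 1621 had several and were not used, and 12146 were unnamed. Where a gene had several probe sets, the one with the highest mean was used. Genes under the 25th percentile (3.90) were left out. The genotypes were tested against each other with limma (3.58.1, under R 4.3.3), two-sided, with a variance trend in eBayes, and the procedure was tested on simulated data. Errors after a log2 change are moderated standard errors, and intervals are 95% intervals of the fit. The members and lists were chosen with earlier results of these data known, so no test over a list was made. Members past the threshold, with a log2 change over 0.5 in size, or among the 6 smallest p in either direction, the receptor chains, Stat2 and Irf9 were to be given by array; further members shown by array were chosen after their values were seen. In the interferon lists the genes past the threshold, or else the 2 with the smallest p, were named. The same was done for macrophage, dendritic cell, neutrophil and adipocyte markers. The rule was not carried through for the fibroblast, endothelial, lymphocyte and muscle fibre markers. Genes named beyond these were chosen after their values were seen. Alternatives changed the filter, the choice of probe set, the normalization, the variance model, the array weights, the replicate block and the arrays used.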

Additional observations from a re-analysis of the deposited data

How the results depend on the processing

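Of the 35 members 26 kept their direction under each of the 15 alternatives that tested them, 16 as positive and 10 as negative, and 9 turned under at least 1, none of which passed on either side. The count of members past the threshold was 0 with all arrays and the chosen settings. It was 2 with a robust variance trend and 2 with array weights (Rsad2 and Bst2, lower in KO, in both), 1 with the replicate block (Rsad2), and 0 to 2 with 1 array left out, all lower in KO. The cause was not tested. The median change of the members was 0.03 to 0.10 over the alternatives. Over all genes 164 passed, against 103 with arrays centred on their median (26 higher in KO), 329 with array weights, and 27 to 1017 with 1 array left out (27 without WT array 3, 30 without WT array 2, 32 without WT array 1 and 1017 without KO array 2). The replicate block gave 123 genes, 59 higher and 64 lower in KO, against 53 and 111, and an adjusted p of 0.0301 for Rsad2. In the labels same-numbered KO and WT arrays share only the number. Such arrays correlated at 0.00883, 0.0822 and -0.0201 in their deviations from the group means. With 3 arrays per group these values cannot tell whether same-numbered arrays shared a litter or a day. Centring shifted the median of all genes to -0.04. Sparc passed as lower in KO under all 15 alternatives. Signal over background cannot be judged without detection calls, and changes of Mx1, Mx2 and other dim genes are limited by it.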

Other observations

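Ifi30, which was higher in KO, and Bst2, whose mean was lower, lie on chromosome 8 with 42 gene entries of the RefSeq table between them. The pair was chosen after the values were seen.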
